A study of Mus musculus with 8 samples.

Results

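The genes described here carry pyruvate into the mitochondrion, convert it to acetyl-CoA and burn that in the citric acid cycle. They were taken as a list of 31 symbols, and each was read from the probe set annotated to that single symbol with the highest mean over 8 arrays. Of the 31 genes, 30 were found this way among the 22180 genes with such a probe set, and Mpc2, a subunit of the pyruvate carrier, was not analysed here. All 30 had a mean signal above the low-signal filter (3.80, log2), which left 15086 genes for testing. The arrays measured hearts of male C57Bl6N mice that had all undergone transverse aortic constriction (TAC) 1 week earlier. In TAC the aorta is narrowed so that the left ventricle pumps against raised pressure. Which part of each heart was taken is not given in the labels. The 4 control hearts were floxed, that is, they carried the recombination sites in the targeted allele, and the 4 knockout hearts carried a knockout of CITED4, a co-regulator of transcription. No unoperated heart was included. The sources used here do not name the Cre driver, the cells it acts in or whether the controls carried Cre, so an effect of Cre cannot be told apart from one of the deletion. The labels number the hearts but do not describe litters or array runs, so every p-value refers to the spread between these samples, which may be partly technical.

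Pyruvate enters mitochondria through the carrier formed by MPC1 and MPC2. The pyruvate dehydrogenase (PDH) complex then turns it into acetyl-CoA. Kinases of the PDK family switch the complex off by phosphorylating its E1 alpha subunit, and the phosphatases PDP1 and PDP2 switch it on again. Citrate synthase feeds acetyl-CoA into the cycle, whose dehydrogenases pass electrons to the respiratory chain. Pyruvate carboxylase and the malic enzymes exchange carbon between pyruvate and the cycle intermediates, and the malate-aspartate shuttle carries reducing equivalents into the mitochondrion. The heart depends on these reactions for nearly all of its ATP, mostly from fatty acids, with pyruvate oxidation as the alternative fuel.

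Cited4 checked the labels: its signal ran from 5.76 to 6.22 (log2) in control hearts and from 4.83 to 5.26 in knockout hearts, with no overlap. Array medians lay between 4.29 and 4.33. Of 10 cardiomyocyte markers, 10 were above the filter, and their summed linear signal was 39400 to 41100 in control hearts and 35600 to 40500 in knockout hearts. In knockout replicate 2 the atrial genes Sln and Myl7 stood at 9.31 and 9.02, against 2.75 to 5.04 in the other 7 hearts. Of the 5 atrial markers listed, Myl4 (5.88) was also highest in this heart. Bmp10 (3.75) lay within the control range there, and Dkk3 (6.72) was below knockout replicates 1 and 4.

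The cycle genes had lower mean signals in the knockout hearts, by small amounts. Of the 30 genes, 27 had a negative difference (knockout minus control, log2), with a median of -0.17, where 48.8% of all 15086 genes were negative and their median was 0.0. The difference came mainly from knockout replicates 1 and 4. Knockout replicate 1 lay below every control heart in 24 of the 30 genes and knockout replicate 4 in 21, against 8 for replicate 2 and 6 for replicate 3. Over all genes tested the shares below every control heart were 28.6%, 27.8%, 18.4% and 22.0% for knockout replicates 1, 4, 2 and 3. The lowest of the 8 hearts was knockout replicate 1 or 4 in 25 of the 30 genes, and in 33.2% of all genes. Knockout replicates 2 and 3 stayed within the control range in 21 and 24 genes.

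**Figure D1:**
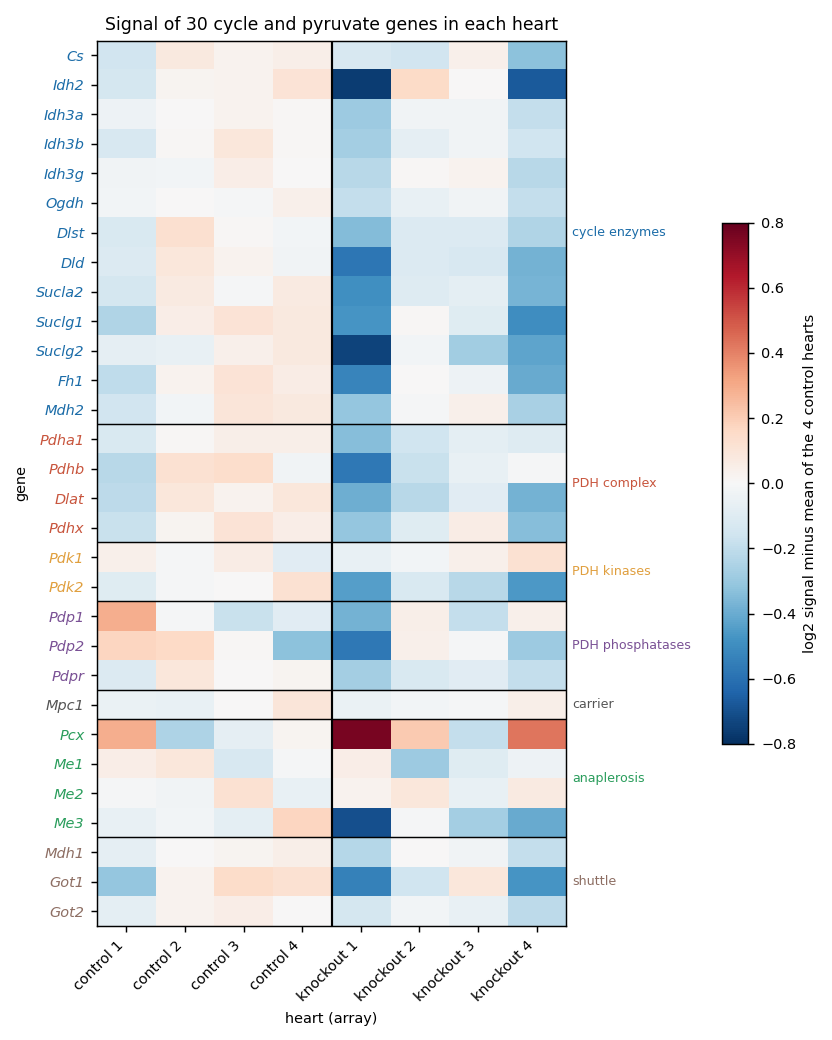
Log2 signal of 30 genes (rows, grouped by role) in each of the 8 hearts (columns), minus the mean of the 4 control hearts. Blue cells are below the control mean and red cells above it; knockout replicates 1 and 4 are below all 4 control hearts in 24 and 21 of the 30 genes, while Pcx is above the controls in both.

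No gene of the list passed the test. Limma, with Benjamini-Hochberg adjustment over 15086 genes, called 0 of the 30 genes at an adjusted p of 0.05 and 0 genes (0.0%) in all. An ordinary test of each gene, with no variance moderation, called 0 as well. Cited4, the gene knocked out, was itself not called by limma, at 53.1% of the control signal (-0.91 ± 0.12, SE; adjusted p = 0.277). A gene without a call is therefore not shown to be unchanged. At an unadjusted p under 0.05 limma had 1697 genes, the unmoderated test 1327. In limma 7 of the 30 genes had an unadjusted p under 0.05, and all 7 were lower in the knockout (Dlst, Dld, Sucla2, Suclg2, Dlat, Pdk2 and Me3), where 5.61% of all genes were lower with such a p. The groups did not overlap in 3 of the 30 genes (Ogdh, Dld and Pdk2), each lower in the knockout and 0 higher, where 2.9% and 2.33% of all genes were. The count of 7 rested on single hearts: it was 1 without knockout replicate 1 or without knockout replicate 4, 3 without control replicate 2, and 2 without control replicate 3 or without control replicate 4. It was 11 without control replicate 1 or without knockout replicate 3, and 10 without knockout replicate 2, the heart with high Sln and Myl7. Leaving out knockout replicate 1 moved the difference of 18 of the 30 genes by over 1.5 times, against 2 to 6 genes for each of the other 7 hearts. Adjusted p-values of the 30 genes ran from 0.421 to 0.986, and 4 against 4 hearts can give no exact permutation p below 0.0286. Any gene whose groups do not overlap has that exact p, so for such genes it only restates the missing overlap.

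**Figure D2:**
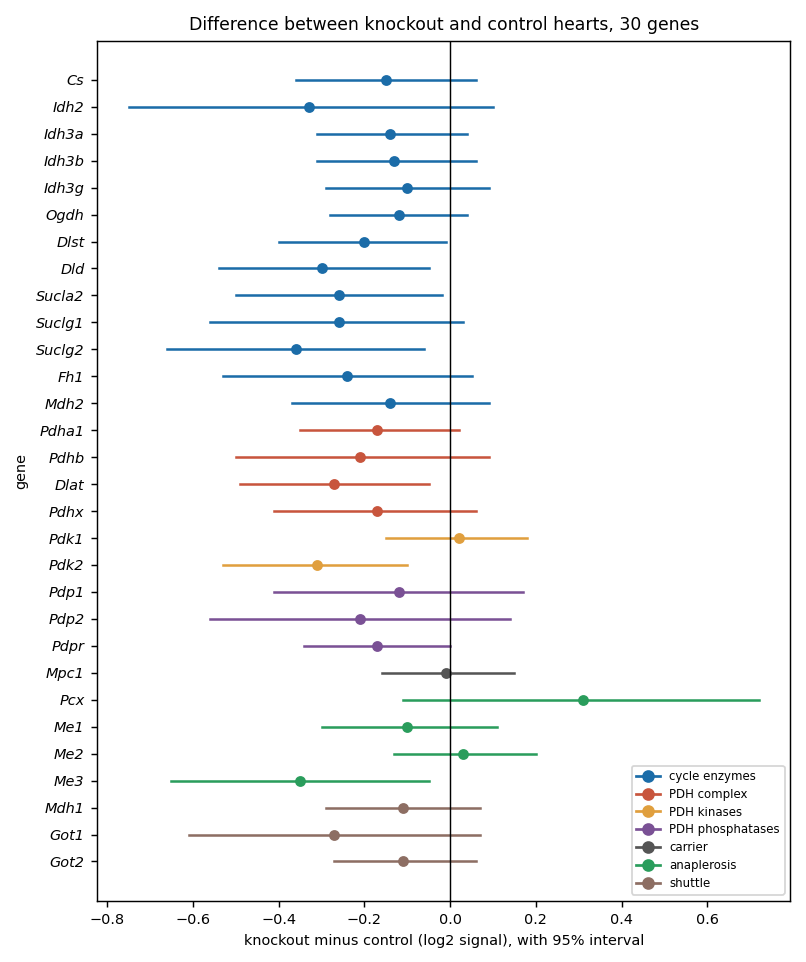
Difference between knockout and control hearts (log2 signal, points) with limma's 95% interval (lines) for 30 genes, coloured by role. All 13 cycle enzymes lie left of 0, from -0.36 to -0.10, whereas Pdk1, Mpc1 and Me2 lie at 0.02, -0.01 and 0.03 and Pcx at 0.31.

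Promoter sequences were compared because the cycle genes had differences of one sign. RefSeq windows (GRCm38.p6, 250 bases before to 50 after a start) were held for 28 of the 31 genes, in 38 windows. They were searched on both strands for letters that bind regulators of mitochondrial genes: TNAAGGTCA for the oestrogen-related receptors (ERR), GCGCANGCG for NRF1 and CCGGAAGT for GABP. The ERR letters were in 0 of the 38 windows (1.28% of all 32851 windows and 0.742% of those of genes tested here), the NRF1 letters in 4 (10.5%, against 6.25% of all windows and 11.2% of those of genes tested here) and the GABP letters in 1 (2.63%, against 3.89% and 6.64%). The NRF1 letters occurred before a start of Ogdh and Sucla2 and after that of Dld, and the GABP letters at the start of Dlst. Ogdh had 6 windows, of which 2 overlapped at the same NRF1 site, so this site counts 2 times among the 4. By gene the NRF1 letters were in 3 of 28, against 1525 of 11675 genes tested here. The 2 upstream matches are shown with the matched letters in capitals, at chr11:6292513-6292557 (plus strand) and chr14:73552740-73552785 (plus strand), each running from 5′ to 3′.
Ogdh: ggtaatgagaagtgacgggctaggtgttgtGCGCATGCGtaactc
Sucla2: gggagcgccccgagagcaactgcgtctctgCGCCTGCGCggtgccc

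The 60 bases before the start are shown for Pdk2 and Pdk1, the kinases of the list, and for Dlat, Dld, Dlst, Suclg2 and Me3, which with Pdk2 and Sucla2 (shown above) are the 7 genes with an unadjusted p under 0.05. CpG steps, typical of promoters that are active in many tissues, are in capitals. Positions in GRCm38.p6 are chr11:95041372-95041431 (minus strand), chr2:71873164-71873223 (plus), chr9:50659781-50659840 (minus), chr12:31351472-31351531 (minus), chr12:85110773-85110832 (plus), chr6:95718847-95718906 (minus) and chr7:89632758-89632817 (plus), in that order.
Pdk2: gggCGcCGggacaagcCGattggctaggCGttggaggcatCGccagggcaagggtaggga
Pdk1: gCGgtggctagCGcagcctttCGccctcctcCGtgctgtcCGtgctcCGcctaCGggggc
Dlat: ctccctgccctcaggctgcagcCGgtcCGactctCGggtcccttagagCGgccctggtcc
Dld: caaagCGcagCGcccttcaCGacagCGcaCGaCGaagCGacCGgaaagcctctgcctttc
Dlst: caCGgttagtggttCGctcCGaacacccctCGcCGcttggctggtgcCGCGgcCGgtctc
Suclg2: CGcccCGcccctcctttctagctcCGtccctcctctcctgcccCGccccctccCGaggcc
Me3: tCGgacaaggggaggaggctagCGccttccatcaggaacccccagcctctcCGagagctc
Pdk2 and Pdk1 had 5 and 7 CpG steps in these 60 bases, and Dld and Dlst had 8 each, the most of the 7. Suclg2 had 5, Dlat 4 and Me3 3. The median over 14685 windows of genes tested was 4. These windows include every start held for a gene, whereas the bases shown precede its most 5′ start. The GC share ran from 63.3% (Dld) to 76.7% (Suclg2), with a median of 65.0% over those windows.

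Some marker lists of other cells stood apart in knockout replicates 1 and 4, and others did not. The mean deviation of 10 fibroblast markers from the control mean was 0.74 in knockout replicate 1 and 0.60 in replicate 4, against 0.29 and -0.01 in replicates 2 and 3. Their summed linear signal was 7040 to 11100 in control and 8220 to 13600 in knockout hearts, with all 10 above the filter. The list was mixed: 8 of the 10 had a positive and 2 a negative difference, Dcn was lowest of the 8 hearts in knockout replicate 1 (11.29), and Ddr2 in knockout replicate 4 (6.85) was below every control heart. The smooth muscle and pericyte markers deviated by 0.56 and 0.43 in knockout replicates 1 and 4 and by -0.02 and -0.19 in replicates 2 and 3. In control hearts they deviated by -0.27 to 0.31. Of these 7 genes, 4 had a negative and 3 a positive difference, with summed signals of 4540 to 5170 in control and 4170 to 5290 in knockout hearts. In knockout replicate 1 Cnn1 (8.54) was highest of the 8 hearts, and Kcnj8 (6.75) and Rgs5 (11.07) were lowest. In knockout replicates 1 to 4 the macrophage markers deviated by 0.30, -0.05, 0.22 and -0.05, and the endothelial markers by -0.25, 0.20, -0.03 and -0.10. The cardiomyocyte markers deviated by -0.28 and -0.27 in knockout replicates 1 and 4 and by -0.01 and -0.09 in replicates 2 and 3. Of these 10 genes, 9 had a negative and 1 a positive difference, with a median of -0.13. They moved unevenly: in knockout replicate 1 Tnnt2 (12.88) was highest of the 8 hearts, and Myh6 (11.39) and Myl3 (10.28) were lowest. Control replicate 1, the control heart with the highest fibroblast markers (0.45), also had the lowest mean of the cycle genes among the controls (-0.12). The part of these markers in the results was not tested. In RNA from mixed cells of the heart, fewer cells of a type and less RNA per cell cannot be told apart. Of 9 macrophage markers 9 were above the filter, with summed signals of 2700 to 3150 in control and 2890 to 3750 in knockout hearts. Of 9 adipocyte markers 8 were on the array, and the means of Adipoq, Lep and Ucp1 were under the filter. The other 5 all had positive differences, with a median of 0.07. Summed signals of all 8 were 337 to 361 in control and 361 to 404 in knockout hearts. Of these, Car3 stood at 6.48 in knockout replicate 2, against 3.67 to 4.65 in the other 7 hearts.

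**Figure D3:**
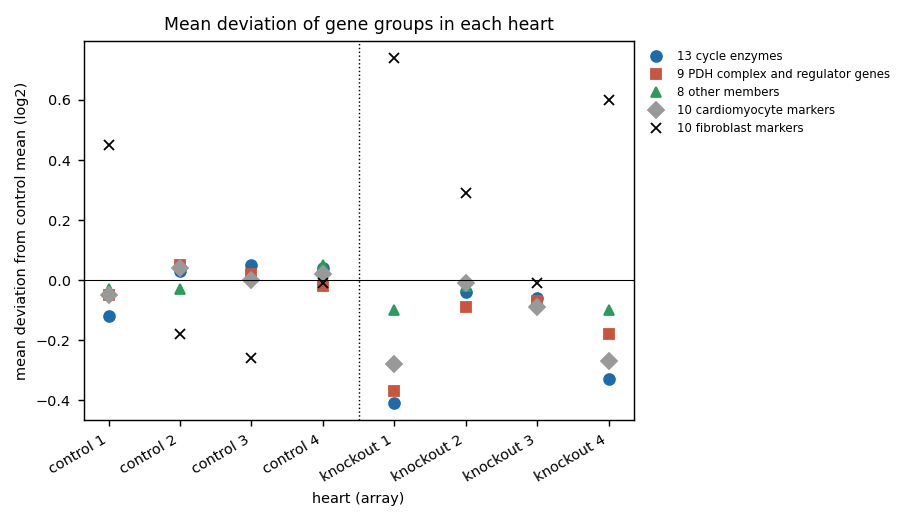
Mean deviation from the control mean (log2) of 13 cycle enzymes, 9 PDH complex and regulator genes, the 8 other genes of the list, 10 cardiomyocyte markers and 10 fibroblast markers in each heart. In knockout replicates 1 and 4 the cycle enzymes stand at -0.41 and -0.33 and the fibroblast markers at 0.74 and 0.60.

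Within the cycle, the 13 enzyme genes had differences from -0.36 to -0.10, with a median of -0.20, a level of 86.9% of the control signal. Their mean deviation was -0.41, -0.04, -0.06 and -0.33 in knockout replicates 1 to 4, and between -0.12 and 0.05 in the control hearts. Knockout replicate 4 was below every control heart in 13 of the 13 genes and replicate 1 in 12, whereas replicates 2 and 3 were in 3 each. Of the 13, 4 had an unadjusted p under 0.05 and 0 passed after adjustment. With knockout replicates 1 and 4 both left out, a choice that follows from their low values, the median was -0.04.

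The oxoglutarate dehydrogenase complex, which turns oxoglutarate into succinyl-CoA, is built from the products of Ogdh (E1), Dlst (E2) and Dld (E3). Ogdh (Entrez gene 18293) was at 11.60, 11.62, 11.61 and 11.66 in control hearts and at 11.43, 11.56, 11.59 and 11.43 in knockout hearts. The groups did not overlap, but the gap between them was 0.0097, and the difference was -0.12 ± 0.07 (SE; limma adjusted p = 0.527; exact permutation p = 0.0286). Dlst (Entrez gene 78920) was at 10.39, 10.64, 10.52 and 10.49 in control and at 10.16, 10.40, 10.40 and 10.27 in knockout hearts. Control replicate 1 lay just below the 2 higher knockout hearts. The difference was -0.20 ± 0.09 (SE; limma adjusted p = 0.438), with an exact permutation p of 0.0857. Dld (Entrez gene 13382), which also serves the PDH complex, was at 10.62, 10.82, 10.76 and 10.70 in control and at 10.15, 10.62, 10.60 and 10.35 in knockout hearts. Knockout replicate 2 all but met control replicate 1, with a gap of 0.000416, and the difference was -0.30 ± 0.11 (SE; limma adjusted p = 0.421; exact permutation p = 0.0286). Without knockout replicate 1 it was -0.20.

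Succinyl-CoA ligase makes a nucleoside triphosphate directly in the cycle, with a shared alpha subunit (Suclg1) and a beta subunit that uses ADP (Sucla2) or GDP (Suclg2). Suclg2 (Entrez gene 20917) was at 8.89, 8.90, 9.0 and 9.04 in control hearts and at 8.22, 8.94, 8.68 and 8.54 in knockout hearts. Knockout replicate 2 lay inside the control range and the other 3 below it. The difference was -0.36 ± 0.14 (SE; limma adjusted p = 0.421), 78.0% of the control signal, and -0.23 without knockout replicate 1. With all hearts its exact permutation p was 0.0857. A second, dimmer probe set of Suclg2 (mean 4.24) differed by 0.03. Sucla2 (Entrez gene 20916) was at 9.49, 9.70, 9.62 and 9.70 in control and at 9.14, 9.53, 9.55 and 9.26 in knockout hearts. The 2 higher knockout hearts exceeded control replicate 1. The difference was -0.26 ± 0.11 (SE; limma adjusted p = 0.433), with an exact permutation p of 0.0857. Suclg1 differed by the same amount, -0.26 ± 0.13 (SE).

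The isocitrate dehydrogenases differed among themselves in how far the low hearts departed. Idh2, the NADP-dependent mitochondrial enzyme, was singled out once its values were known. It stood at 11.23, 11.39, 11.40 and 11.48 in control hearts and at 10.61, 11.52, 11.37 and 10.70 in knockout hearts, so that 2 knockout hearts were far below the controls and 1 was above them all. Its difference was -0.33 ± 0.19 (SE; limma adjusted p = 0.528), and 0.07 without knockout replicates 1 and 4. The NAD-dependent enzyme of the cycle has 3 kinds of subunit, and their genes Idh3a, Idh3b and Idh3g differed by -0.14 ± 0.08, -0.13 ± 0.08 and -0.10 ± 0.08 (SE). Without knockout replicate 1 they were -0.09, -0.08 and -0.06, and Idh2 was -0.18. Idh3g (Entrez gene 15929), the smallest difference of the cycle group, was at 11.33, 11.34, 11.41 and 11.36 in control and at 11.14, 11.37, 11.39 and 11.14 in knockout hearts. Its knockout hearts formed a pair below the controls and a pair among them.

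The remaining cycle genes had intervals that include 0. Cs (citrate synthase) differed by -0.15 ± 0.09, Fh1 (fumarase) by -0.24 ± 0.13 and Mdh2 (mitochondrial malate dehydrogenase) by -0.14 ± 0.10 (SE). Fh1 and Mdh2 were -0.14 and -0.08 without knockout replicate 1, and Cs was -0.09 without knockout replicate 4. Cs was the 1 cycle gene in which knockout replicate 1, at 11.02, was not below the lowest control heart. The mean signals of 6 of the 13 cycle genes exceeded 10.73, the 99th percentile of the genes tested, where array signals can be compressed, and this was not measured.

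The PDH group of 9 genes, the complex with its kinases and phosphatases, was set against the cycle enzymes. Of the 9, 8 had a negative difference, with a median of -0.17, and 2 had an unadjusted p under 0.05 (Dlat and Pdk2); 0 passed after adjustment. The median was -0.11 without knockout replicate 1. The cycle median lay below the PDH median by 0.03 (difference -0.03), and without 1 heart this difference was between -0.05 and 0.02, so the order of the 2 medians depended on single hearts. It also turned, to 0.02, when Dld was counted with the PDH complex. Their profiles over the hearts were not the same in every heart. The mean deviation of the PDH group was -0.37 in knockout replicate 1 and -0.18 in replicate 4, where the cycle enzymes stood at -0.41 and -0.33. Knockout replicate 4 was below every control heart in 4 of the 9 PDH genes and in all 13 cycle genes. These are counts in 1 heart and carry no test.

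Among the subunits of the complex, Dlat (Entrez gene 235339), the E2 acetyltransferase core, was at 9.15, 9.45, 9.39 and 9.45 in control hearts and at 8.97, 9.14, 9.27 and 8.98 in knockout hearts. Control replicate 1 overlapped the knockout hearts, and the other 3 controls were above them. The difference was -0.27 ± 0.10 (SE; limma adjusted p = 0.421; exact permutation p = 0.0571), 82.9% of the control signal. Pdha1 (Entrez gene 18597), the E1 alpha subunit that the kinases phosphorylate, was at 10.43, 10.56, 10.60 and 10.60 in control and at 10.21, 10.39, 10.47 and 10.45 in knockout hearts. The knockout hearts did not exceed 3 of the controls, and the difference was -0.17 ± 0.08 (SE; limma adjusted p = 0.477). Pdhb (E1 beta) differed by -0.21 ± 0.13 and Pdhx, the subunit that binds E3 to the core, by -0.17 ± 0.11 (SE). In Pdhb knockout replicate 4 was at 10.99, within the control range of 10.78 to 11.14. Without knockout replicate 1 Pdhb was -0.08 and Pdha1 -0.11.

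The 2 kinase genes of the list were set side by side. Pdk2 (Entrez gene 18604), a main PDH kinase isoform of heart muscle, was at 9.14, 9.23, 9.24 and 9.36 in control hearts and at 8.80, 9.12, 9.02 and 8.78 in knockout hearts. Each knockout heart was below each control heart, by a gap of 0.0144 between the nearest. The difference was -0.31 ± 0.10 (SE; 95% interval -0.53 to -0.10), 80.6% of the control signal. It had the smallest unadjusted p of the 30 genes (0.00906, limma), with an adjusted p of 0.421 and an exact permutation p of 0.0286. The difference was between -0.38 and -0.26 when any 1 heart was left out, and -0.17 without knockout replicates 1 and 4. Pdk1 (Entrez gene 228026), whose gene is a known target of hypoxia signalling, was at 7.90, 7.85, 7.92 and 7.77 in control and at 7.80, 7.84, 7.90 and 7.98 in knockout hearts. The groups overlapped widely, and the difference was 0.02 ± 0.07 (SE; 95% interval -0.15 to 0.18; limma adjusted p = 0.939). The within-array log2 ratio of Pdk2 to Pdk1 was 1.23, 1.38, 1.32 and 1.59 in control hearts and 1.00, 1.28, 1.12 and 0.81 in knockout hearts, so 1 knockout heart lay in the control range. This ratio, computed once the values of both genes were known, differed by -0.33 (two-sided exact permutation p = 0.0571), so the 2 genes were not shown to differ in their response. The promoter windows of both genes, with 5 and 7 CpG steps in the 60 bases printed, held none of the 3 motifs searched.

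The other kinase genes were on a second list of pathway genes and were named because they complete the family. Pdk4, which fasting and fatty acids induce, was at 9.71, 9.76, 10.49 and 9.97 in control and at 8.63, 9.89, 10.08 and 9.49 in knockout hearts, a difference of -0.46 ± 0.29 (SE; limma adjusted p = 0.556). Pdk3 was at 5.37, 4.60, 4.84 and 4.61 in control and at 5.75, 5.05, 4.93 and 5.37 in knockout hearts, a difference of 0.42 ± 0.21 (SE; limma adjusted p = 0.473). Both overlapped between the groups.

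**Figure D4:**
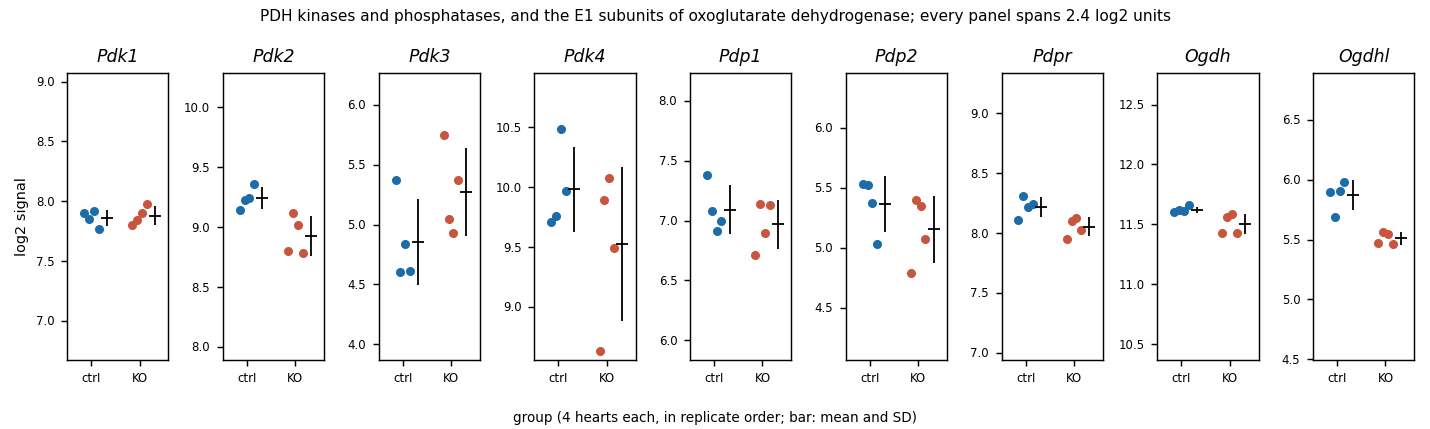
Log2 signal of the PDH kinase and phosphatase genes and of Ogdh and Ogdhl in 4 control (ctrl, blue) and 4 knockout (KO, red) hearts; points are hearts in replicate order, bars the mean and SD, and every panel spans the same log2 range. The groups do not overlap in Pdk2, Ogdh and Ogdhl, and overlap widely in Pdk1.

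The phosphatase genes had negative differences, none past the threshold. Pdp1 (Entrez gene 381511), the calcium-stimulated phosphatase of muscle, was at 7.38, 7.08, 6.91 and 7.00 in control and at 6.71, 7.14, 6.90 and 7.13 in knockout hearts. Both groups were widely spread and overlapped, and the difference was -0.12 ± 0.13 (SE; limma adjusted p = 0.740). It was -0.02 without control replicate 1 and -0.03 without knockout replicate 1, so its size rested on single hearts. Pdp2 differed by -0.21 ± 0.16 and Pdpr, the regulatory subunit, by -0.17 ± 0.08 (SE; limma adjusted p = 0.454). In Pdpr the control hearts ran from 8.11 to 8.31 and the knockout hearts from 7.95 to 8.13, with an overlap of 1 heart from each group. Pdp2 was -0.09 without knockout replicate 1 and -0.32 without control replicate 4.

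Pyruvate entry and the reactions that refill the cycle did not share the direction of the cycle enzymes in every case. Mpc1 (Entrez gene 55951), the carrier subunit measured, was at 11.26, 11.25, 11.31 and 11.41 in control and at 11.26, 11.29, 11.30 and 11.36 in knockout hearts. The knockout hearts lay wholly within the control range, and the difference was -0.01 ± 0.07 (SE; 95% interval -0.16 to 0.15). Its sign turned with the scaling, to 0.04 after quantile normalization, and a second probe set (mean 6.68) differed by 0.07.

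Pcx (Entrez gene 18563), pyruvate carboxylase, had the largest positive difference of the list and was singled out once its values were known. It stood at 5.48, 4.94, 5.12 and 5.21 in control and at 5.95, 5.40, 5.00 and 5.62 in knockout hearts. Knockout replicates 1 and 4, the hearts with the lowest cycle signals, were the highest here, and the other 2 lay in the control range. The difference was 0.31 ± 0.19 (SE; limma adjusted p = 0.539), 0.16 without knockout replicate 1 and 0.02 without replicates 1 and 4. Its signal is low for this list, and the fibroblast markers were highest in the same 2 hearts; their part in it was not tested.

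The malic enzymes, which turn malate into pyruvate, differed from each other in pattern. Me3 (Entrez gene 109264), the mitochondrial NADP-dependent form, was at 6.81, 6.85, 6.79 and 7.04 in control and at 6.17, 6.86, 6.60 and 6.47 in knockout hearts. All but knockout replicate 2 were below the controls. The difference was -0.35 ± 0.13 (SE; limma adjusted p = 0.421), 78.6% of the control signal and -0.23 without knockout replicate 1. With all hearts its exact permutation p was 0.114. A second probe set of Me3 (mean 5.00) differed by 0.06. Me2 (Entrez gene 107029), the mitochondrial NAD-dependent form, was at 6.39, 6.37, 6.52 and 6.34 in control and at 6.43, 6.49, 6.34 and 6.47 in knockout hearts, with nearly the same range in both groups and a difference of 0.03 ± 0.07 (SE). Me1, the cytosolic form, differed by -0.10 ± 0.09 (SE), and its lowest heart was knockout replicate 2 at 8.54. Without that heart it was -0.03.

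The malate-aspartate shuttle genes had a median of -0.11. Got1, the cytosolic aspartate aminotransferase, differed by -0.27 ± 0.15 and Mdh1, the cytosolic malate dehydrogenase, by -0.11 ± 0.08 (SE). Without knockout replicate 1 they were -0.18 and -0.07. Got2 (Entrez gene 14719), the mitochondrial aminotransferase, was at 11.71, 11.82, 11.84 and 11.79 in control and at 11.65, 11.77, 11.73 and 11.58 in knockout hearts. The groups overlapped, and the difference was -0.11 ± 0.07 (SE; limma adjusted p = 0.598).

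A second list held 58 further genes of the pathway and its surroundings (the succinate dehydrogenase subunits, lipoate synthesis, lactate and ketone enzymes, carriers). Of these 50 were tested, 38 with a negative and 12 with a positive difference and a median of -0.12. Limma called 0 after adjustment, and 7 were lower and 1 higher at an unadjusted p under 0.05, where 5.61% and 5.64% of all genes were. Ogdhl, which encodes a second E1 of the oxoglutarate dehydrogenase type, was at 5.90, 5.69, 5.91 and 5.98 in control and at 5.47, 5.56, 5.55 and 5.46 in knockout hearts. All 4 knockout hearts were low here, replicates 2 and 3 included, and the difference was -0.36 ± 0.08 (SE; unadjusted p = 0.00143 and adjusted p = 0.421, limma; exact permutation p = 0.0286). Slc25a13, an aspartate-glutamate carrier of the shuttle, differed by -0.21 ± 0.07 (SE; limma adjusted p = 0.421), also without overlap. Slc16a3, the lactate exporter MCT4, was at 5.27, 5.10, 5.15 and 5.07 in control and at 6.10, 5.03, 5.50 and 6.06 in knockout hearts. Its high hearts were knockout replicates 1 and 4 again, and the difference was 0.52 ± 0.21 (SE; limma adjusted p = 0.424). The succinate dehydrogenase genes Sdha, Sdhb, Sdhc and Sdhd differed by -0.23, -0.14, -0.24 and -0.12, and Nnt by -0.42 ± 0.19 (SE; limma adjusted p = 0.444).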

How the data were processed

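Total RNA of hearts was labelled with biotin for Affymetrix arrays, per the labels' protocols. The deposited table holds log2 signals of 41345 probe sets for 8 arrays, made by the authors with RMA and limma (no version stated), per the submitters' processing notes. Genome build, probe positions and array batches were not stated there. RMA brings the arrays' distributions close together, with medians of 4.29 to 4.33 here, and would hide a change common to all genes.

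Gene symbols came from the platform annotation (23521 probe sets with 1 symbol, 1814 with several, not used), and 30 of 30 measured genes of the list kept their symbol in the RefSeq table. A gene was tested when its mean reached the 40th percentile of probe set means. Knockout and control hearts were compared with limma 3.58.1 in R 4.3.3 (lmFit, eBayes, all 8 arrays), which was tested on simulated data, and single genes also by a two-sided exact permutation test (70 assignments of the arrays). The list, its role groups and the second list were chosen with earlier results of these data known, so list values are descriptions. Values in all hearts are given for genes with an unadjusted p under 0.05 or without overlap, for the smallest difference of each role and for both kinases; for any other gene the text says that it was picked once its values were known. Of the second list, the pair with the smallest p in each direction is named, with exceptions for the kinase family, the succinate dehydrogenase subunits and Nnt.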

Additional observations from a re-analysis of the deposited data

Results flagged for a closer look

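Among the values of 92 groups of 4 hearts, 3 held a heart far from the other 3 by Dixon's ratio, where chance gives about 4.6. All 3 were control replicate 1. Its Suclg1 signal was 7.44, with the next control heart at 7.73 and the highest at 7.79. Its mean deviation over the 13 cycle enzymes was -0.12, against 0.03 to 0.05 in the other controls, and over the 4 PDH complex genes it was -0.18, against 0.04 to 0.08. This heart also had the highest fibroblast markers of the controls (0.45), and the part of that in the values was not tested.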

How the results depend on the processing

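Over 19 alternatives 559 of 570 differences of single genes kept their sign, 11 changed it and none passed the threshold. Other filters, other variance settings and a replicate block leave a gene's difference as it was. Its sign could not change there, so the 559 overstate how far the signs were tried. Under each alternative 0 genes were called, and 0 at an adjusted p of 0.1. Mpc1 became 0.04 with quantile normalization and 0.03 with the mean of its probe sets. That mean brought Suclg2 to -0.17 and Me3 to -0.14. Quantile normalization brought Ogdh to -0.08, Cs to -0.11, Mdh1 to -0.07 and Got2 to -0.06, with the cycle median at -0.19. Without 1 heart Mpc1 ran from -0.02 to 0.03, Pdk1 from -0.01 to 0.05, and the count of genes of the list at an unadjusted p under 0.05 from 1 to 11 (main 7). Without knockout replicates 1 and 4 that count was 0, the cycle median -0.04, its difference from the PDH median 0.06, and Idh2, Idh3g, Mdh2 and Pdp2 were 0.07, 0.02, 0.01 and 0.02; 23 of 30 genes were then lower, and this follows in part from choosing the lowest hearts and from fewer arrays. Over all genes, 1697 had an unadjusted p under 0.05, 987 to 2390 without 1 heart and 617 without those 2. Whether replicate numbers pair the hearts was not settled. Correlations of deviations were 0.359, 0.00866, 0.282 and -0.0253 for numbers 1 to 4, and -0.469 to 0.261 between unlike numbers. With the number as a block the count for the list was 11 and included the same 7 genes. The number of arrays limits the precision.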
